A study of Mus musculus with 36 samples.

Results

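Matrix metalloproteinases (MMPs) are zinc-dependent enzymes that cut the proteins of the extracellular matrix, and tissue inhibitors of metalloproteinases (TIMPs) bind and block them. Described here are 10 genes of these families, namely the protease genes Mmp2, Mmp3, Mmp9, Mmp11, Mmp12, Mmp13 and Mmp14 and the inhibitor genes Timp1, Timp2 and Timp3. They were taken by name from the 21650 genes of a mouse expression table, with earlier results of these data known. All 10 were found there with 1 row each. The table covers 36 RNA-seq libraries in 12 groups of 3.

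The study compared a pair of intraductal mammary tumor models in mice with an intact immune system. 4T1 cells, a BALB/c-derived mammary tumor line that constitutively makes firefly luciferase, were grown in BALB/c mice. Py230 cells, a line from spontaneous mammary tumors of MMTV-PyMT transgenic mice on a C57BL/6 background, were grown in C57BL/6 mice. Both came to female mice through the teat canal into the ducts of the third mammary gland, in PBS with Matrigel, a basement membrane extract, shortly after their pups had been weaned. Glands of both strains inoculated with Matrigel and no tumor cells were the controls, called BALB/c glands and C57BL/6 glands below, and tissue of all 4 kinds was taken at weeks 1, 3 and 6 after inoculation. The mice had been mated as young adults, so all groups share a gland that had just stopped giving milk. Each model is 1 cell line in 1 strain, and the paper inoculated fewer 4T1 cells than Py230 cells. Line, strain and cell number thus cannot be told apart in a tumor comparison, and the glands show the strain alone. The study also used albino C57BL/6 mice with a heterozygous NF-κB luciferase transgene beside wild-type mice, and the labels of the libraries give the strain as C57BL/6 with no transgene named.

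MMPs are made as inactive precursors, and their activity depends on other proteases, on surface partners and on inhibitors as well as on RNA. Mmp14 encodes a membrane-anchored protease that activates the Mmp2 protein with Timp2 as its bridge, Timp1 is known as the partner of the Mmp9 precursor, and Timp3 is the inhibitor that stays bound to the matrix. In the mammary gland these enzymes take part in the tissue remodeling that follows weaning, and in tumors they are made by cancer cells and by fibroblasts, macrophages and neutrophils.

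Of these genes, 3 lie in a cluster on mouse chromosome 9 (GRCm38, the same build as mm10, GENCODE annotation). There, 9 MMP genes fill the stretch from chr9:7272514-7699585 and are the only protein-coding genes in it. Mmp13 (chr9:7272514-7283331), Mmp12 (chr9:7344381-7369499) and Mmp3 (chr9:7445822-7455975) are on the plus strand. Mmp1b, on the minus strand, lies before Mmp3 and overlaps the end of Mmp12, where reads of the pair cannot be told apart unless counted by strand, and the other MMP genes follow Mmp3. The other members are scattered over chromosomes 2 (Mmp9), 8 (Mmp2), 10 (Mmp11 and Timp3), 11 (Timp2), 14 (Mmp14) and X (Timp1).

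MMP promoters are textbook targets of the AP-1 factors, which bind the letters TGANTCA. The RefSeq promoter table of GRCm38.p6 held windows for 8 of the 10 genes (none for Mmp2 and Mmp9), and the 250 bases before each start were searched for these 7 letters, which read the same on both strands. Mmp3, Mmp12 and Mmp13 held 1 match each, and 6.75% of all 32851 windows held at least 1. For Mmp12 the table lists a pair of start sites, of which the later one has the match. The 100 bases before the start are printed for these 3 cluster members and for Timp1, whose level followed that of Mmp13 over the groups, 5′ to 3′ on the plus strand with the match in capitals.
Mmp13, chr9:7272414-7272513: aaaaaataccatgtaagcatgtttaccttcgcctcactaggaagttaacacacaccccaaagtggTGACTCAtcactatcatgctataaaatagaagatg
Mmp3, chr9:7445722-7445821: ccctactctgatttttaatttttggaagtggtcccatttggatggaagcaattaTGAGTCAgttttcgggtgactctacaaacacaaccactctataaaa
Mmp12, chr9:7347274-7347373: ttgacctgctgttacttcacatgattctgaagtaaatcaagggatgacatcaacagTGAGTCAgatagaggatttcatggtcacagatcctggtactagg
Timp1, chrX:20870066-20870165: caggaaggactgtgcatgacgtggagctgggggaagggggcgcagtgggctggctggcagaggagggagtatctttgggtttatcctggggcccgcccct
In these windows the match began 35 bases before the start in Mmp13, 46 in Mmp3 and 44 in Mmp12. Timp1 had none in its 250 bases, which says only that these letters are not there.

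The deposited value of a gene in a library is a score, for which every library had been scaled so that its genes averaged 0 with an SD of 1. Scores behave like a log scale. Over 13567 well-expressed genes, a step of 1 in score between genes went with 2.78 log2 units of the authors' mean normalized count. Sequencing depth cannot be read from the scores, so errors rest on the spread between libraries. The fit shares 1 estimate of that spread per gene over all 12 groups, so a widely spread group does not carry its own error. For Mmp13, the SD was 1.02 in 4T1 tumors of week 3 against 0.42 pooled over the groups. The authors' mean normalized count, in which longer genes get more, was lowest for Mmp13 (531), Timp1 (544), Mmp9 (607) and Mmp11 (790), and the other members had from 3093 (Mmp3) to 13386 (Timp2), so no member was near the low end of the table. Levels are compared below within a gene only. In bulk tissue, fewer cells of a type and less RNA per cell cannot be told apart.

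Before the comparisons, some features of the libraries have to be known. The mean skeletal muscle marker score varied widely within some groups. It ran from -0.49 to 2.18 in 4T1 tumors and from -0.51 to 2.97 in C57BL/6 glands of week 1. Py230 tumor libraries of week 1 were close to C57BL/6 glands, with 2 genes of all called between them. At week 3, 4T1 tumor replicate 1 stood apart from the other 4T1 tumors, with a mean adipocyte marker score of 0.70 against 1.97 and 2.14, and Py230 tumor replicate 1 stood apart in the same measure, with 0.40 against 1.72 and 1.98. In BALB/c and C57BL/6 glands of all weeks this score was 1.66 to 2.23. Correlations between libraries of a group were at least 0.947, and the highest correlation between 2 libraries was 0.993.

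**Figure D1:**
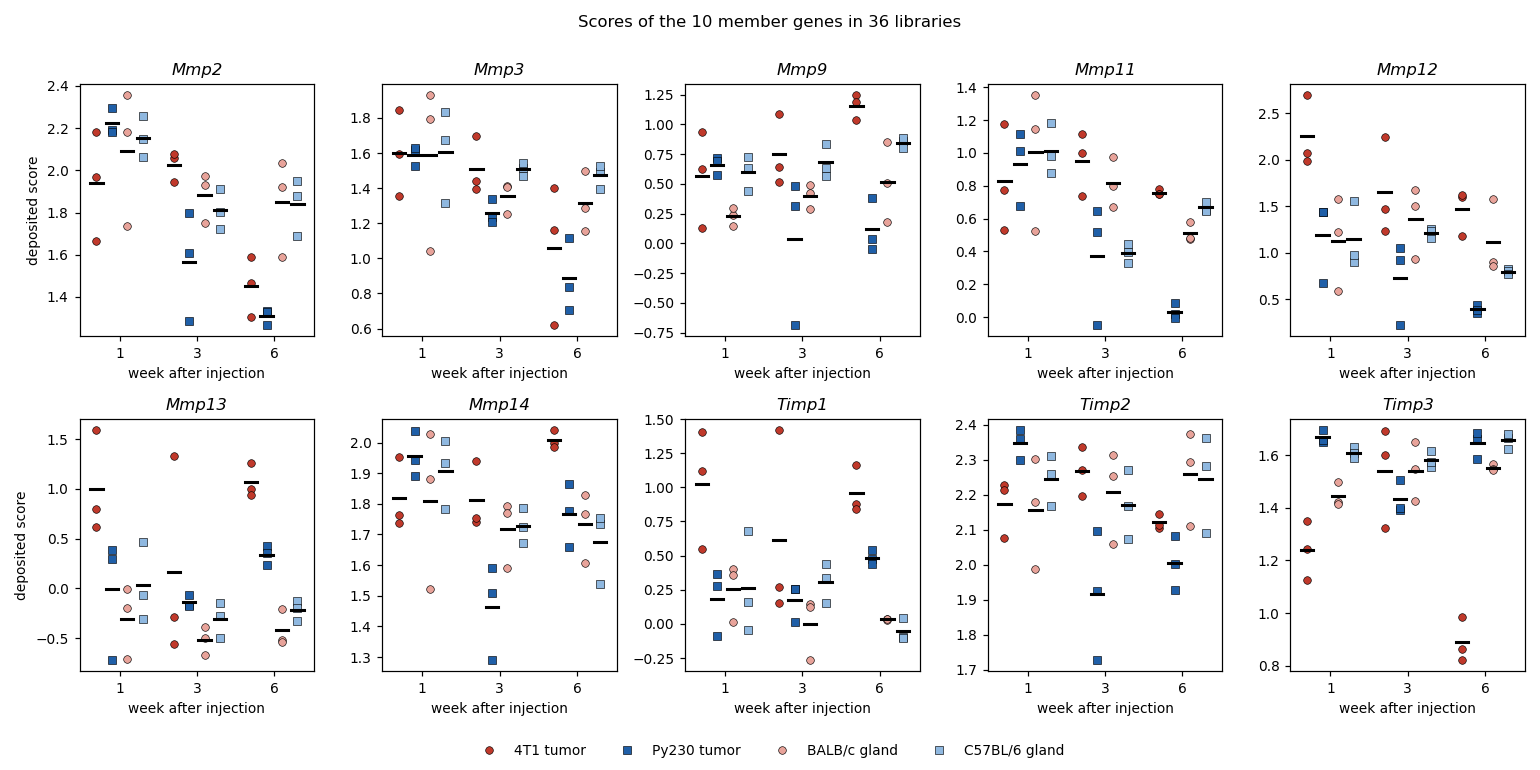
Deposited score (vertical axis, no unit) of each of the 10 genes by week after inoculation (horizontal axis), with 1 symbol per library, 3 libraries per group, and a black bar at the group mean. Timp3 was lowest in the 4T1 tumors of week 6 (0.82 to 0.99), where Mmp9 was highest, and the 4T1 tumors of week 3 were spread widely in Mmp13 and Timp1.

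The first question was how the tumor models differed at each week. Differences are 4T1 minus Py230, in score units with the standard error (SE), and a gene was called at an adjusted p under 0.05 (limma, 36 libraries, Benjamini-Hochberg over all genes). At week 1, 4 of the 10 genes were called, beside 19.4% of all genes. Mmp12, Mmp13 and Timp1 were higher in 4T1 tumors and Timp3 was lower. At week 3, 6 of 10 were called, all higher in 4T1 tumors, beside 30.3% of all genes, and these were Mmp2, Mmp9, Mmp11, Mmp12, Mmp14 and Timp2. At week 6, 4 of 10 were called, beside 40.8%, with Mmp9, Mmp11 and Mmp12 higher in 4T1 tumors and Timp3 lower. The median difference of the 10 genes was -0.10, 0.39 and 0.36 at weeks 1, 3 and 6, and that of all genes 0.01, -0.01 and 0.04. The share of members at week 6 was thus close to that of all genes, while at weeks 1 and 3 more members were called than genes in general, on 10 genes. The members were chosen with earlier results of these data known, so these shares describe the set and do not test it.

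Of the calls at weeks 1 and 3, that of Timp3 at week 1 held without each library, and the others were lost without single libraries. Without Py230 tumor replicate 1 of week 3, 0 of 10 members were called at week 3. With both models' replicate 1 of that week left out, none of the 6 calls remained. In that setting 1 other member, Timp3, was called, and it was higher in 4T1 tumors. At week 1, 1 was called without 4T1 replicate 1 or without Py230 replicate 1, and 5 without 4T1 replicate 2. At week 6 the count was 4 or 5 whichever library was left out. In the whole table, leaving out replicate 1 of both models at week 3 took the genes called there from 6569 to 3012. Counts given below for marker lists and other gene lists are from all libraries only.

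**Figure D2:**
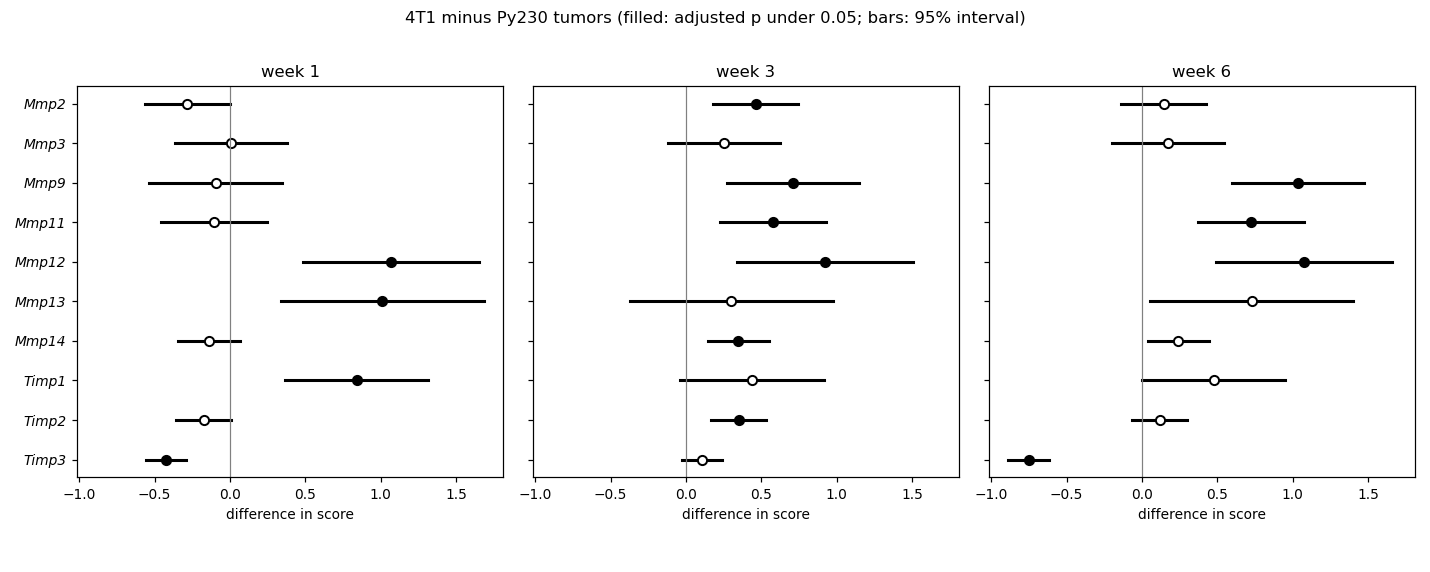
Difference of the mean score, 4T1 minus Py230 tumors (horizontal axis, score units), for the 10 genes (vertical axis) at weeks 1, 3 and 6, with bars for the 95% interval of the model and filled symbols for an adjusted p under 0.05. Timp3 lies left of 0 at weeks 1 and 6 (-0.43 and -0.75) but not at week 3, and Mmp12 lies right of 0 at all 3 weeks (1.07, 0.92 and 1.08).

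The second question was how each tumor differed from the glands of its own strain. In 4T1 tumors against BALB/c glands, 4 of 10 genes were called at week 1, beside 16.6% of all genes. Mmp12, Mmp13 and Timp1 were higher in the tumors and Timp3 lower. At week 3, 0 of 10 were called, beside 3.25%, with unadjusted p-values under 0.05 for Mmp13 (0.0479) and Timp1 (0.0139). At week 6, 6 of 10 were called, beside 60.1%: Mmp9, Mmp13, Mmp14 and Timp1 were higher in tumors, and Mmp2 and Timp3 were lower.

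In Py230 tumors against C57BL/6 glands, 0 of 10 were called at week 1, beside 0.00924%, and no member had an unadjusted p under 0.05. At week 3, 2 of 10 were called, Mmp9 and Timp2, both lower in tumors, beside 19.7%. At week 6, 5 of 10 were called, all lower in tumors, beside 47.6%, and these were Mmp2, Mmp3, Mmp9, Mmp11 and Timp2. No member was called higher in Py230 tumors than in C57BL/6 glands at any week, although Mmp13 and Timp1 were at week 6 when only the groups compared were fitted, and Timp1 was with the replicate block. Between BALB/c and C57BL/6 glands, 0 of 10 were called at weeks 1, 3 and 6, beside 3.06%, 3.77% and 3.84% of all genes, and the unadjusted p was under 0.05 for Timp3 at week 1 and Mmp11 at week 3.

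Whether the tumor effects themselves differed was tested by subtracting the gland difference from the tumor difference. At week 1, 0 of 10 genes were called in this test, beside 0.305% of all genes, with unadjusted p-values under 0.05 for Mmp12, Mmp13, Timp1 and Timp3. At week 3, 1 was called, Mmp9, beside 9.15%. At week 6, 3 were called, Mmp9 and Mmp11 upward and Timp3 downward, beside 25.5%, and the count stayed at 3 whichever of the 12 libraries was left out.

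**Figure D3:**
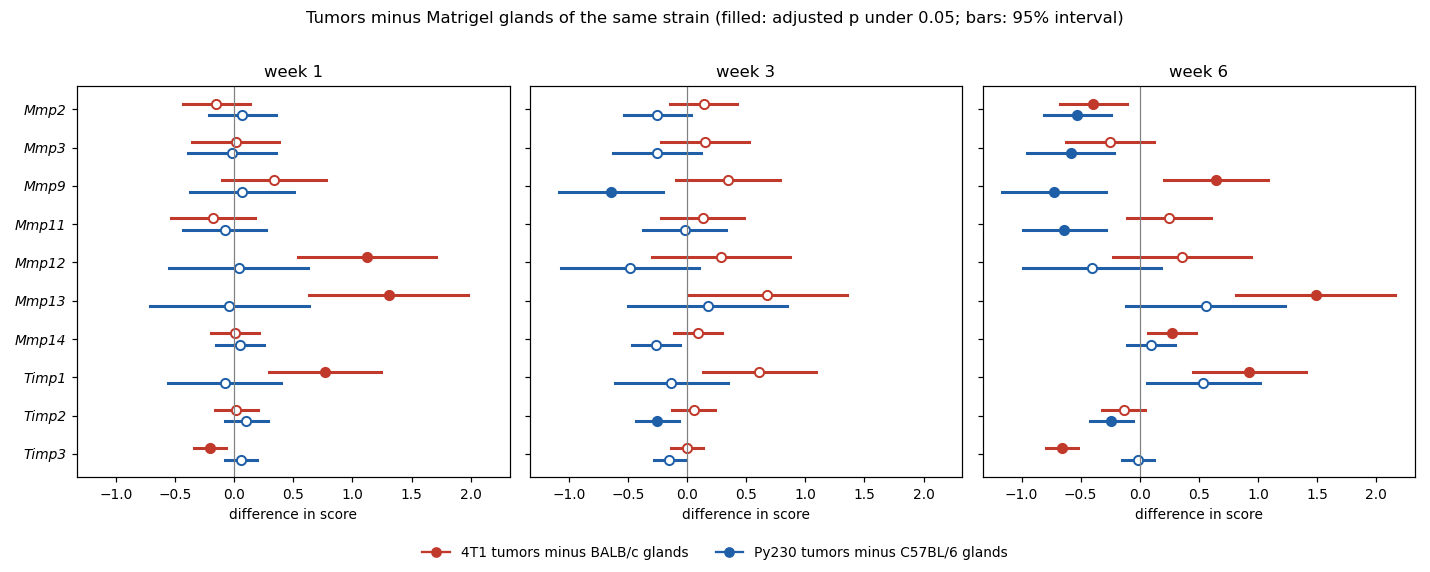
Difference of the mean score (horizontal axis, score units) of 4T1 tumors minus BALB/c glands (red) and Py230 tumors minus C57BL/6 glands (blue) for the 10 genes (vertical axis) at weeks 1, 3 and 6, with bars for the 95% interval and filled symbols for an adjusted p under 0.05. At week 6, Mmp9 lies on opposite sides of 0 in the models (0.64 and -0.72), and Timp3 is far below 0 in 4T1 tumors alone (-0.66 against -0.01).

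Among the inhibitors, and among all 10 members, Timp3 had the smallest adjusted p between the tumors at weeks 1 and 6. Its score in 4T1 tumors was 1.24, 1.35 and 1.13 at week 1, 1.32, 1.69 and 1.60 at week 3 and 0.87, 0.82 and 0.99 at week 6. In Py230 tumors it was 1.65, 1.66 and 1.69 at week 1, 1.39, 1.40 and 1.51 at week 3 and 1.66, 1.68 and 1.59 at week 6. All 4T1 libraries lay below all Py230 libraries at weeks 1 and 6, and at week 3 the groups overlapped. The difference was -0.43 (SE 0.07, adjusted p = 5.91e-05) at week 1, 0.11 (SE 0.07, adjusted p = 0.234) at week 3 and -0.75 (SE 0.07, adjusted p = 5.33e-10) at week 6. With replicate 1 of both models left out at week 3, Timp3 was called higher in 4T1 tumors at that week.

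Timp3 was not called over time in the glands, where it was 1.45 ± 0.05, 1.54 ± 0.11 and 1.55 ± 0.01 (mean ± SD, n = 3) in BALB/c glands at weeks 1, 3 and 6, and 1.61 ± 0.02, 1.58 ± 0.03 and 1.66 ± 0.03 in C57BL/6 glands. Against its own glands, Timp3 was lower in 4T1 tumors, with differences of -0.21 at week 1 (adjusted p = 0.0337) and -0.66 at week 6 (adjusted p = 5.31e-09), with libraries apart at both weeks. The call of week 1 was lost without any library but 4T1 replicate 2, with an adjusted p of up to 0.204, whereas that of week 6 held without each, in a range of -0.71 to -0.63. In Py230 tumors it was -0.01 from its glands at week 6, with a 95% interval of -0.15 to 0.12. With the glands subtracted, the difference at week 6 was -0.65 (SE 0.09, adjusted p = 6.91e-06). The change of the 4T1 minus Py230 difference was also called, by 0.53 from week 1 to week 3 and by -0.86 from week 3 to week 6.

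Timp1, the inhibitor that cells make in response to injury and cytokines, was called in the opposite direction to Timp3 in 4T1 tumors. In 4T1 tumors its score was 1.41, 0.55 and 1.12 at week 1, 1.42, 0.27 and 0.16 at week 3 and 0.88, 0.84 and 1.16 at week 6. In BALB/c glands it was 0.40, 0.01 and 0.36 at week 1, 0.15, -0.26 and 0.12 at week 3 and 0.04, 0.03 and 0.04 at week 6. The tumors lay above their glands at all 3 weeks, but at week 3 replicate 1 was far above the other tumors. In Py230 tumors it was -0.09, 0.28 and 0.36 at week 1, 0.26, 0.26 and 0.02 at week 3 and 0.48, 0.54 and 0.44 at week 6.

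Against BALB/c glands, the Timp1 difference of 4T1 tumors was 0.77 (SE 0.23, adjusted p = 0.0277) at week 1 and 0.93 (adjusted p = 0.00135) at week 6. The value of week 6 held without each library (0.82 to 0.98), and that of week 1 lost its call without 4T1 replicate 1 (0.58, adjusted p = 0.158), 4T1 replicate 3 (adjusted p = 0.12) or BALB/c gland replicate 2 (adjusted p = 0.146). Py230 tumors also lay above all C57BL/6 glands at week 6, where the glands had 0.04, -0.09 and -0.11, but the difference of 0.54 missed the threshold (adjusted p = 0.0585). Between the tumors, Timp1 was called at week 1 (0.84, adjusted p = 0.0133) and not at week 6 (0.47, adjusted p = 0.106), where the libraries were apart. That effect in 4T1 and Py230 tumors was not shown to differ at week 6, with a gland-subtracted difference of 0.39 and a 95% interval of -0.29 to 1.06.

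Timp2, the bridge between Mmp14 and Mmp2, varied least of the 3 inhibitors between groups. Its group means ran from 1.92 in Py230 tumors at week 3 to 2.35 in Py230 tumors at week 1. In Py230 tumors it was 2.38, 2.30 and 2.36 at week 1, 1.73, 1.93 and 2.10 at week 3 and 2.00, 2.08 and 1.93 at week 6, so every library of week 3 was below every library of week 1. In 4T1 tumors it was 2.08, 2.23 and 2.21 at week 1, 2.27, 2.33 and 2.20 at week 3 and 2.11, 2.11 and 2.15 at week 6. The tumor models were apart at week 3, with a difference of 0.35 (SE 0.09, adjusted p = 0.00396), which without Py230 replicate 1 was 0.26 (adjusted p = 0.0568). Against C57BL/6 glands, Timp2 was lower in Py230 tumors at weeks 3 (-0.25, adjusted p = 0.0444, groups overlapping) and 6 (-0.24, adjusted p = 0.0274, groups apart). Both calls were lost under quantile normalization and cyclic loess. They were also lost without single libraries, at week 3 without Py230 replicate 1 (-0.16, adjusted p = 0.403) or 2 or gland replicate 2 or 3, and at week 6 without Py230 replicate 1 or 3 or gland replicate 1 or 3 (-0.18, adjusted p = 0.142, without the last).

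The collagenase gene Mmp13, whose product cuts fibrillar collagen, had the largest difference between a tumor and its glands among the 10 genes. In 4T1 tumors its score was 1.59, 0.62 and 0.79 at week 1, 1.33, -0.55 and -0.29 at week 3 and 1.26, 0.99 and 0.94 at week 6. BALB/c glands had -0.20, -0.71 and -0.01 at week 1, -0.50, -0.67 and -0.38 at week 3 and -0.52, -0.21 and -0.54 at week 6. At weeks 1 and 6 all tumors were above all glands, and at week 3 only replicate 1 was above the range of its glands by a wide margin, while replicate 2 lay within that range. Py230 tumors had -0.72, 0.30 and 0.39 at week 1, -0.17, -0.07 and -0.17 at week 3 and 0.42, 0.35 and 0.24 at week 6.

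The Mmp13 difference of 4T1 tumors from BALB/c glands was 1.31 (SE 0.33, adjusted p = 0.0114) at week 1 and 1.49 (SE 0.33, adjusted p = 0.000378) at week 6, the latter running from 1.39 to 1.59 whichever library was left out. The call of week 1 was lost without 4T1 replicate 1 (1.01, adjusted p = 0.0897), 4T1 replicate 3 (adjusted p = 0.0569) or BALB/c gland replicate 2 (adjusted p = 0.0876). Against Py230 tumors, Mmp13 was higher by 1.01 at week 1 (adjusted p = 0.0314), and at week 6 a difference of 0.73 missed the threshold (adjusted p = 0.0787) although no library overlapped. The difference of week 1 was 0.66 (adjusted p = 0.21) without Py230 replicate 1 and 0.72 (adjusted p = 0.198) without 4T1 replicate 1, and its call was also lost without 4T1 replicate 3. Py230 tumors at week 6 were above all C57BL/6 glands (-0.13, -0.33 and -0.20), by 0.56 (adjusted p = 0.165). Between weeks 3 and 6, Mmp13 rose by 0.90 in 4T1 tumors (adjusted p = 0.0226), with overlapping libraries, and by 1.49 without replicate 1 of week 3. The call was lost without replicate 2 (0.55, adjusted p = 0.193) or replicate 3 (adjusted p = 0.125) of week 3 or replicate 1 of week 6 (adjusted p = 0.0762). The 4T1 tumor of week 3 with the high Mmp13 and Timp1 was the one with low adipocyte markers (a mean of 0.70), and in 4T1 tumors of week 6 that mean was -0.19 to 0.07, while in those of week 1, with Mmp13 above all glands, it was 1.18 to 1.70. Py230 replicate 1 of week 3, with adipocyte markers at 0.40, had Mmp13 at -0.17, beside -0.07 and -0.17 in the other Py230 tumors of that week. Its Timp1 was 0.26, beside 0.26 and 0.02. The part of fat tissue in the Mmp13 result was not tested.

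Of the gelatinases, which cut denatured collagen and basement membrane collagen, Mmp9 was the member whose tumor effects lay farthest apart between the models at week 6. At week 6 its score was 1.24, 1.04 and 1.19 in 4T1 tumors and 0.85, 0.51 and 0.18 in BALB/c glands, 0.03, 0.38 and -0.05 in Py230 tumors and 0.86, 0.80 and 0.88 in C57BL/6 glands. Every 4T1 tumor was above every BALB/c gland, and every Py230 tumor was below every C57BL/6 gland. The differences from the glands were 0.64 (SE 0.21, adjusted p = 0.0116) and -0.72 (adjusted p = 0.00684). The first was 0.48 (adjusted p = 0.0806) without BALB/c gland replicate 3. The 4T1 minus Py230 difference was 1.03 (adjusted p = 0.000307), and 1.37 (SE 0.30, adjusted p = 0.00127) with the glands subtracted, in a range of 1.20 to 1.54 without single libraries.

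At the earlier weeks Mmp9 was less clear. At week 1 it was 0.94, 0.13 and 0.62 in 4T1 tumors and 0.72, 0.57 and 0.69 in Py230 tumors, with a difference of -0.10 (95% interval -0.53 to 0.34). At week 3 it was 1.09, 0.64 and 0.51 in 4T1 tumors and -0.68, 0.32 and 0.48 in Py230 tumors. The groups were apart, and replicate 1 was the highest of the 4T1 tumors and the lowest of the Py230 tumors. The difference of 0.71 (adjusted p = 0.0132) fell to 0.35 (adjusted p = 0.204) without Py230 replicate 1 and to 0.54 (adjusted p = 0.0824) without 4T1 replicate 1. The difference of Py230 tumors from C57BL/6 glands at week 3 (-0.64, adjusted p = 0.0351) went to -0.28 (adjusted p = 0.475) without that Py230 library and was also lost without each of the C57BL/6 glands, and the gland-subtracted difference of week 3 (0.99, adjusted p = 0.0396) went to 0.63 (adjusted p = 0.167) and was also lost without 4T1 replicate 1 or any of the 6 glands.

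Neutrophils store Mmp9 in their granules, and neutrophil markers moved with it in part. The mean score of 10 neutrophil markers was 0.13, -0.09 and -0.14 in 4T1 tumors at week 6, above the -0.79 to -0.56 of Py230 tumors and the -1.01 to -0.88 of BALB/c glands. Of these markers, 9 were higher and 1, the lactoferrin gene Ltf, was lower in 4T1 tumors than in Py230 tumors at week 6, with 7 higher at week 3 and 3 at week 1. Between the tumors, 40.8%, 30.3% and 19.4% of all genes were called at weeks 6, 3 and 1. S100a9, a calcium-binding protein abundant in neutrophils, was 1.45 higher (adjusted p = 3.72e-07) at week 6, and Ly6g, a neutrophil surface marker, had a low score of -1.71 ± 0.13 in 4T1 tumors and -2.16 ± 0.01 in Py230 tumors. Py230 tumors at week 6 had more neutrophil marker signal than C57BL/6 glands (-0.79 to -0.56 against -1.05 to -1.01). There, 5 of the 10 were higher and 1 lower, beside 47.6% of all genes, while Mmp9 was lower. The part of neutrophils in the Mmp9 result was not tested.

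Mmp2, the other gelatinase, is made mainly by fibroblasts. It was 1.67, 2.18 and 1.97 in 4T1 tumors and 2.19, 2.18 and 2.30 in Py230 tumors at week 1, and 1.94, 2.06 and 2.08 against 1.29, 1.61 and 1.80 at week 3. At week 6 it was 1.47, 1.31 and 1.59 in 4T1 tumors and 1.27, 1.33 and 1.33 in Py230 tumors, where BALB/c glands had 2.04, 1.92 and 1.59 and C57BL/6 glands 1.88, 1.69 and 1.95. Both tumors ended below all glands of their strain, in 4T1 tumors only just, with the highest tumor at 1.587 and the lowest gland at 1.592. Mmp2 was overlapping between the tumors at weeks 1 and 6 and apart at week 3.

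Against the glands at week 6, the Mmp2 difference was -0.39 in 4T1 tumors (adjusted p = 0.0158) and -0.53 in Py230 tumors (adjusted p = 0.00258). The first call was lost without 4T1 replicate 2 (adjusted p = 0.0807), BALB/c gland replicate 1 (-0.30, adjusted p = 0.0931) or BALB/c gland replicate 2 (adjusted p = 0.0554), and the second held without each library (-0.60 to -0.48). These effects were not shown to differ, at 0.13 (95% interval -0.27 to 0.53). Mmp2 had already fallen by week 3 in Py230 tumors, with a difference of -0.66 from week 1 (adjusted p = 0.00181), and in 4T1 tumors it fell from week 3 to week 6 (-0.57, adjusted p = 0.0011). C57BL/6 glands, not tested from week 1 to week 3, had means of 2.15 and 1.81 at these weeks. The difference between the tumors at week 3 was 0.46 (adjusted p = 0.0123), and 0.32 (adjusted p = 0.127) without Py230 replicate 1.

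Some fibroblast markers were called in the same comparisons as Mmp2. The mean of 9 such markers was 1.87, 1.93 and 1.58 in 4T1 tumors and 2.07, 1.62 and 1.55 in Py230 tumors at weeks 1, 3 and 6, with single glands between 1.66 and 2.07. At week 6, 3 of the 9 were called lower in 4T1 tumors than in BALB/c glands and 4 lower in Py230 tumors than in C57BL/6 glands, with 0 higher in both, beside 60.1% and 47.6% of all genes. Between the tumors at week 3, 4 of the 9 were higher in 4T1 tumors, beside 30.3% of all genes. The part of fibroblast RNA in the results on Mmp2, or on Mmp3, Mmp11, Mmp14 and Timp2, was not tested.

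**Figure D4:**
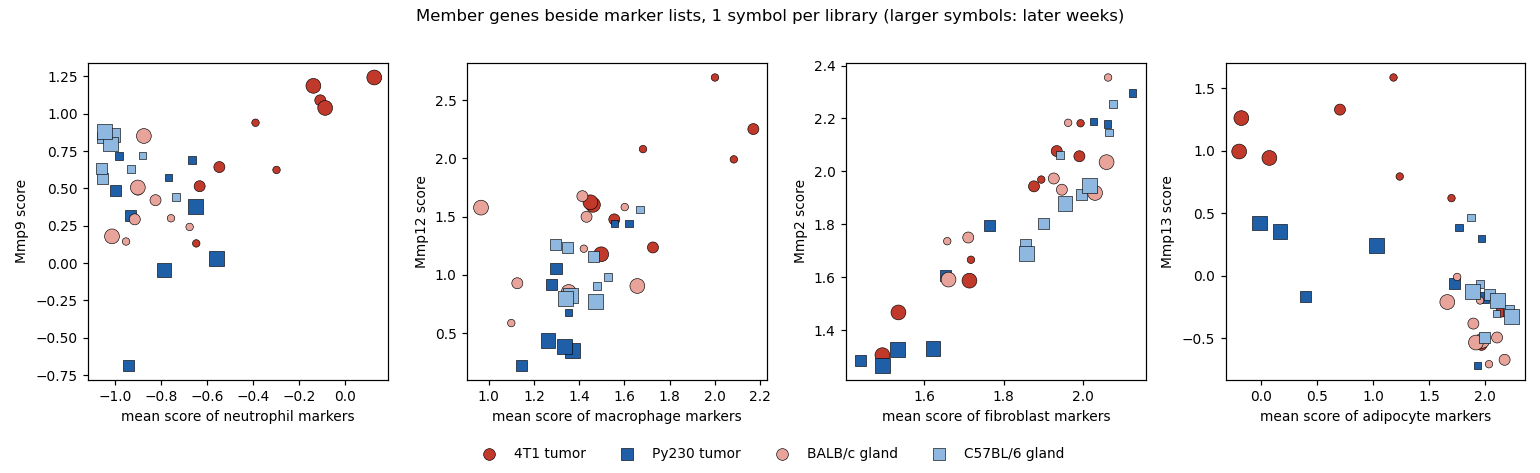
Score of Mmp9, Mmp12, Mmp2 and Mmp13 (vertical axes, score units) against the mean score of neutrophil, macrophage, fibroblast and adipocyte markers (horizontal axes, score units), with 1 symbol per library and larger symbols for later weeks. The 4T1 tumors of week 6 are high in Mmp9 (1.04 to 1.24) and in neutrophil markers (-0.14 to 0.13), Mmp2 lies along the fibroblast markers in tumors and glands, and the Mmp13 scores of 4T1 tumors are high at low adipocyte markers, with 1 week 1 tumor (Mmp13 0.62, adipocyte markers 1.70) within the gland range of the markers. The Py230 tumor of week 3 with adipocyte markers at 0.40 has an Mmp13 score of -0.17.

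The stromelysin genes Mmp3 and Mmp11 were lower in Py230 tumors than in C57BL/6 glands at week 6. Mmp3, whose product cuts many matrix proteins and activates other MMPs, was 0.71, 0.84 and 1.12 in Py230 tumors and 1.49, 1.40 and 1.53 in C57BL/6 glands at week 6. All tumors were below all glands, with a difference of -0.59 (adjusted p = 0.00932), which missed the threshold only without Py230 replicate 1 (-0.50, adjusted p = 0.0531). In 4T1 tumors at week 6 it was 1.40, 0.62 and 1.16, spread across and below the 1.50, 1.29 and 1.16 of BALB/c glands (-0.25, 95% interval -0.63 to 0.12). Between the tumors Mmp3 was not called at any week, with differences of 0.01, 0.25 and 0.17. In 4T1 tumors it fell from week 3 to week 6 (-0.45, adjusted p = 0.0383), where the libraries overlapped and the call was lost without replicate 3 of week 3 (adjusted p = 0.15) or replicate 2 of week 6 (-0.23, adjusted p = 0.311).

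Mmp11, a stromelysin known from the stroma of breast carcinomas, was 0.78, 0.75 and 0.75 in 4T1 tumors and 0.02, -0.01 and 0.09 in Py230 tumors at week 6. BALB/c glands then had 0.47, 0.48 and 0.58 and C57BL/6 glands 0.65, 0.70 and 0.65, so 4T1 tumors were above and Py230 tumors below the glands of their strain. The Py230 difference from its glands was -0.64 (adjusted p = 0.00339), the 4T1 difference from its glands was 0.25 (adjusted p = 0.217), and only the first was called. Between the tumors it was 0.73 (SE 0.17, adjusted p = 0.00119), and with the glands subtracted 0.88 (SE 0.24, adjusted p = 0.00785). Both calls held without each library, in ranges of 0.71 to 0.75 and 0.86 to 0.92. At week 3 the Mmp11 scores were 1.00, 0.74 and 1.11 in 4T1 tumors and -0.05, 0.52 and 0.65 in Py230 tumors, and the difference of 0.58 (adjusted p = 0.0119) was 0.37 (adjusted p = 0.147) without Py230 replicate 1 and 0.50 (adjusted p = 0.0565) without 4T1 replicate 3. BALB/c glands of week 3 had 0.98, 0.80 and 0.67 and C57BL/6 glands 0.40, 0.33 and 0.44. Glands without tumor cells were thus apart in the same direction, and with the glands subtracted Mmp11 was not called at week 3. At week 1 the tumors overlapped (-0.11, 95% interval -0.46 to 0.25).

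Mmp12, the macrophage elastase, was the protease called between the tumors at all 3 weeks. Its score in 4T1 tumors was 2.69, 2.08 and 1.99 at week 1, 2.25, 1.23 and 1.48 at week 3 and 1.60, 1.62 and 1.18 at week 6. In Py230 tumors it was 0.68, 1.44 and 1.44 at week 1, 0.22, 0.92 and 1.05 at week 3 and 0.44, 0.35 and 0.38 at week 6. The tumor models did not overlap at any week. The differences were 1.07 (SE 0.28, adjusted p = 0.0108), 0.92 (SE 0.28, adjusted p = 0.0154) and 1.08 (SE 0.28, adjusted p = 0.0033). The last held without each library (1.00 to 1.22). The first was lost without 4T1 replicate 1 (0.85, adjusted p = 0.0849) or Py230 replicate 1 (0.81, adjusted p = 0.086), and the second without the libraries of the same names at week 3 (adjusted p = 0.117 and 0.136).

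Against the glands, Mmp12 was called in 4T1 tumors at week 1 alone. At week 1, Mmp12 was 1.22, 0.59 and 1.58 in BALB/c glands, all below the 4T1 tumors, and the tumors were 1.12 higher (SE 0.28, adjusted p = 0.0119), a call lost without 4T1 replicate 1 (adjusted p = 0.0874), 4T1 replicate 3 (adjusted p = 0.0569) or BALB/c gland replicate 2 (0.85, adjusted p = 0.105). At week 6 it was 0.90, 0.85 and 1.58 in BALB/c glands, which overlapped the 4T1 tumors (0.36, adjusted p = 0.287). C57BL/6 glands had 0.82, 0.80 and 0.77, all above the Py230 tumors (-0.41, adjusted p = 0.25). Neither tumor was thus called against its glands at week 6, and the gland-subtracted difference was 0.76 with a 95% interval of -0.07 to 1.59. Macrophage markers, of which 7 of 8 were measured, had a mean of 1.92, 1.82 and 1.47 in 4T1 tumors and 1.51, 1.24 and 1.32 in Py230 tumors at weeks 1, 3 and 6. They were called higher in 4T1 tumors for 1, 7 and 0 of the 7 markers at these weeks, beside 19.4%, 30.3% and 40.8% of all genes. At week 6, with no macrophage marker called higher, the marker mean of single libraries was 1.45 to 1.50 in 4T1 tumors and 1.26 to 1.37 in Py230 tumors. The part of macrophages in the Mmp12 result was not tested.

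Mmp14, the membrane-anchored activator of Mmp2, varied little. In 4T1 tumors it was 1.74, 1.95 and 1.76 at week 1, 1.94, 1.74 and 1.76 at week 3 and 2.00, 1.99 and 2.04 at week 6. In Py230 tumors it was 1.89, 1.94 and 2.04 at week 1, 1.29, 1.51 and 1.59 at week 3 and 1.78, 1.86 and 1.66 at week 6. Every Py230 tumor of week 3 was below every one of week 1 and every 4T1 tumor of week 3. The model difference at week 3 was 0.35 (adjusted p = 0.00925), and 0.26 (adjusted p = 0.0928) without Py230 replicate 1 or 0.28 (adjusted p = 0.0518) without 4T1 replicate 1. At week 6 the tumors were apart but not called (0.24, adjusted p = 0.0536). Against BALB/c glands at week 6 (1.83, 1.77 and 1.61), 4T1 tumors were higher by 0.27 (adjusted p = 0.0197). That call was lost without 4T1 replicate 3 (adjusted p = 0.0542) or BALB/c gland replicate 3 (adjusted p = 0.102), and with each library rescaled to the same median and median absolute deviation (0.12, adjusted p = 0.307).

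The third question was how the members changed with time. In 4T1 tumors, 1 of 10 changed from week 1 to week 3, Timp3 upward by 0.30 with overlapping libraries (adjusted p = 0.0316), beside 0.628% of all genes, and without replicate 1 of week 3 the count was 4, with Mmp12, Mmp13 and Timp1 called lower at week 3, while the genes called in the whole table went from 136 to 3378. The Timp3 call was lost without replicate 1 or 3 of week 1 or without replicate 2 or 3 of week 3 (adjusted p = 0.1, 0.185, 0.262 and 0.144). From week 3 to week 6, 4 of 10 changed, beside 53.0%, with Mmp13 up and Mmp2, Mmp3 and Timp3 (-0.65, adjusted p = 1.13e-08) down, and without replicate 1 of week 3 the count was 7, beside 11829 of all genes. In Py230 tumors, 6 of 10 changed from week 1 to week 3, all downward, beside 20.0%. The falls were -0.66 for Mmp2, -0.62 for Mmp9, -0.56 for Mmp11, -0.49 for Mmp14, -0.43 for Timp2 and -0.23 for Timp3. In all 6 genes the tumor libraries of the weeks were apart. C57BL/6 glands were not tested over this interval. Their means at weeks 1 and 3 were 2.15 and 1.81 for Mmp2, 1.01 and 0.39 for Mmp11 and 1.91 and 1.73 for Mmp14. For Mmp9 they were 0.60 and 0.68, for Timp2 2.25 and 2.17 and for Timp3 1.61 and 1.58. The tumor falls of Mmp2, Mmp14 and Timp2 held without each library. Those of Mmp9, Mmp11 and Timp3 were lost without replicate 1 of week 3 (adjusted p = 0.488, 0.272 and 0.103), the fall of Mmp9 being -0.26 and that of Mmp11 -0.35 there. The calls were also lost without any library of week 1 for Mmp9, without replicate 2 or 3 of week 1 for Mmp11, and without replicate 3 of week 1 or replicate 2 of week 3 for Timp3. From week 3 to week 6 in Py230 tumors, 0 of 10 changed, beside 6.03%, with unadjusted p-values under 0.05 for Mmp14 (up 0.30), Timp3 (up 0.21) and Mmp3 (-0.37).

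In the glands, 0 of 10 members changed from week 1 to week 6 in either strain, beside 0.0831% of all genes in BALB/c glands and 0.194% in C57BL/6 glands. Unadjusted p-values were under 0.05 for Mmp11 in BALB/c glands (-0.50) and for Mmp2 (-0.32) and Mmp14 (-0.23) in C57BL/6 glands. The change of the 4T1 minus Py230 difference itself was called for 4 of 10 members from week 1 to week 3, beside 15.3%, all upward, with 0.75 for Mmp2, 0.49 for Mmp14, 0.52 for Timp2 and 0.53 for Timp3. From week 3 to week 6 it was called for 1, Timp3 (-0.86), beside 26.7%.

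Over the 12 groups, the members could be ordered by their means. Timp3 had its lowest means in 4T1 tumors at week 6 (0.89 ± 0.08) and week 1 (1.24 ± 0.11), a step of 0.35 against a pooled SD of 0.08, while the means from rank 4 to rank 8 lay closer together than that SD. Timp1 and Mmp13 were both highest in 4T1 tumors of weeks 1 and 6, at 1.02 ± 0.44 and 0.96 ± 0.18 for Timp1 and 1.00 ± 0.52 and 1.07 ± 0.17 for Mmp13, with no difference between the weeks beyond the spread. Mmp12 was highest in 4T1 tumors at weeks 1, 3 and 6 (2.25 ± 0.38, 1.65 ± 0.53 and 1.47 ± 0.25) and lowest in Py230 tumors at week 6 (0.39 ± 0.04).

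Mmp9 was highest in 4T1 tumors of week 6 (1.16 ± 0.11) and lowest in Py230 tumors of weeks 6 and 3 (0.12 ± 0.23 and 0.04 ± 0.63), which did not differ beyond their spread. Mmp11 was highest in C57BL/6 and BALB/c glands of week 1 (1.01 ± 0.15 and 1.01 ± 0.43) and lowest in Py230 tumors of week 6 (0.03 ± 0.05). Mmp2 ran from 2.22 ± 0.07 in Py230 tumors of week 1 to 1.31 ± 0.04 in those of week 6, next to the 1.45 ± 0.14 of 4T1 tumors of week 6. Mmp3 had the same group at the bottom (0.89 ± 0.21), and its upper 7 means, from 1.61 ± 0.26 in C57BL/6 glands of week 1 down to 1.47 ± 0.07 in those of week 6, lay within its pooled SD of 0.23. Mmp14 ran from 2.01 ± 0.03 in 4T1 tumors of week 6 to 1.46 ± 0.16 in Py230 tumors of week 3, and only the step down to that last group (0.21) was wider than its pooled SD of 0.13.

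The pairs of members most alike over the 12 group means were Mmp13 and Timp1 (Pearson r = 0.933) and Mmp2 and Mmp3 (r = 0.929), and the least alike were Timp1 and Timp3 (r = -0.735). These are descriptions over 12 points that share strain, tumor content and week. Among 13566 other well-expressed genes, those whose 12 means were most like Mmp2 were Aebp1 (r = 0.981, Spearman rho = 0.895), Pla1a (r = 0.980) and Ctsk (r = 0.969). For Timp3 they were Gpc6 (r = 0.979), Plekha4 (r = 0.978) and Slco3a1 (r = 0.958), for Timp1 Gusb (r = 0.975), Cmtm7 (r = 0.974) and Erp29 (r = 0.974), and for Mmp13 Manba (r = 0.980), Cyfip1 (r = 0.980) and Cmtm7 (r = 0.976). For Mmp12 they were Crip1 (r = 0.948), Eya3 (r = 0.948) and Lyz2 (r = 0.946), for Mmp9 Ust (r = 0.938), Azin2 (r = 0.919) and Lrrk2 (r = 0.915), and for Mmp3 Slc39a8 (r = 0.975), Gm15242 (r = 0.970) and Ifngr1 (r = 0.955). Mmp14 was most like P3h1 (r = 0.922), Col5a1 (r = 0.909) and Fbln2 (r = 0.904), Timp2 like Antxr1 (r = 0.936), Lpar1 (r = 0.930) and Dnm1 (r = 0.922), and Mmp11 like Gm20444 (r = 0.895), Tbkbp1 (r = 0.885) and Bfar (r = 0.869).

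Of 17 further MMP and TIMP genes, 11 were measured. Between the tumors, 2 were higher and 2 lower in 4T1 tumors at week 1, 4 higher and 1 lower at week 3, and 2 higher and 2 lower at week 6. Of all genes, 19.4%, 30.3% and 40.8% were called at these weeks. At week 6 the higher ones were neighbors of Mmp3 on chromosome 9. Mmp8, the neutrophil collagenase, was 0.05 ± 0.19 in 4T1 tumors and -1.19 ± 0.15 in Py230 tumors (1.24, adjusted p = 1.76e-07), and Mmp10, a stromelysin, was 0.28 ± 0.44 and -0.85 ± 0.12 (1.13, adjusted p = 1.79e-06). Mmp15 (-0.68) and Mmp17 (-0.48), both membrane-anchored proteases, were lower. At weeks 1 and 3, Mmp25, a membrane-anchored protease of leukocytes, was higher by 0.68 and 0.72, Mmp8 was higher at week 1 (0.59), and Mmp19 (0.46) and Mmp27 (0.45) were higher at week 3. Mmp16 (-0.37) and Mmp17 (-0.28) were lower at week 1 and Mmp15 (-0.37) at week 3.

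Against the glands at week 6, 2 of the 11 were higher and 6 lower in 4T1 tumors, beside 60.1% of all genes. In Py230 tumors 0 were higher and 6 lower, beside 47.6%. Timp4, the fourth inhibitor, was lower in both, at -1.06 ± 0.03 against 0.23 ± 0.17 in the BALB/c pair (-1.29, adjusted p = 0.000268) and -1.01 ± 0.21 against 0.39 ± 0.15 in the C57BL/6 pair (-1.40, adjusted p = 0.000173). All 6 adipocyte markers were lower there too, in 4T1 tumors with a mean of -0.19 to 0.07 against 1.66 to 1.97 in BALB/c glands and in Py230 tumors with -0.01 to 1.03 against 1.89 to 2.23 in C57BL/6 glands, and their part in the Timp4 result was not tested. Mmp8 (1.45) and Mmp10 (0.96) were higher in 4T1 tumors, Mmp15 (-0.69) and Mmp27 (-0.57) lower, and in Py230 tumors Mmp28 (-0.74) and Mmp27 (-0.52) were lower. At week 1, Mmp25 (0.89) and Mmp8 (0.47) were higher and Mmp28 (-0.47) and Mmp16 (-0.29) lower in 4T1 tumors, beside 16.6% of all genes. In Py230 tumors 0 of 11 were called, beside 0.00924%. At week 3, Mmp25 (0.88) was the 1 called in 4T1 tumors, beside 3.25%, and Mmp28 (-0.52) the 1 called in Py230 tumors, beside 19.7%.

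The plasminogen system activates several MMPs, and 5 of its genes are reported here. Of these, 1, 3 and 2 were higher and 0 lower in 4T1 tumors than in Py230 tumors at weeks 1, 3 and 6, beside 19.4%, 30.3% and 40.8% of all genes. Plaur, the urokinase receptor, was higher at weeks 1 (0.51, adjusted p = 0.0371) and 6 (0.93, adjusted p = 7.86e-05), and Plau, urokinase, at weeks 3 (0.67) and 6 (0.39). Serpinb2 (1.15) and Plat (0.33) were higher at week 3. Against the glands at week 6, Serpine2 was higher in 4T1 and Py230 tumors (0.68 and 1.03), as was Plaur (1.29 and 0.42). At week 1, Serpinb2 (1.24, libraries overlapping) and Plaur (0.71) were above the glands in 4T1 tumors, and at week 3 Plat was below them in Py230 tumors (-0.26).

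Of 16 ADAM and ADAMTS genes, the relatives of the MMPs that shed surface proteins or cut proteoglycans, 3 were higher and 3 lower in 4T1 tumors than in Py230 tumors at week 1, 6 and 1 at week 3, and 2 and 4 at week 6. The shares of all genes called at these weeks were 19.4%, 30.3% and 40.8%. Adam8, a protease of leukocytes and tumor cells, was higher at all 3 weeks (0.84, 0.76 and 0.97), and Adamts14 at weeks 3 (0.57) and 6 (0.56). Adam12 (-0.38) and Adamts12 (-0.44) were lower at week 1, Adamts8 at weeks 3 (-0.49) and 6 (-0.47) and Adamts15 at week 6 (-0.61). Against the glands at week 6, 9 were higher and 2 lower in 4T1 tumors and 6 higher and 3 lower in Py230 tumors, beside 60.1% and 47.6% of all genes. Adamts4 was higher in both (0.67 and 0.79) and Adamts5 lower in both (-1.19 and -0.96).

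Among 8 regulators and partners of MMPs, Reck, a membrane-anchored MMP inhibitor, was lower in 4T1 tumors at weeks 1 (-0.50, adjusted p = 0.00432) and 6 (-0.37, adjusted p = 0.0122), at 0.42 ± 0.14 and 0.78 ± 0.09 at week 6. Cd44, which anchors Mmp9 at the cell surface, was higher at weeks 1 (0.32) and 6 (0.49), and Lcn2, which binds Mmp9, was lower at weeks 3 (-0.69) and 6 (-0.76). A2m, a plasma protease inhibitor, was higher at week 3 (0.65, libraries overlapping) and Lrp1, a receptor that takes up MMPs, at weeks 3 (0.39) and 6 (0.34). In all, 1 was higher and 1 lower at week 1, 2 and 1 at week 3, and 3 and 2 at week 6. Of 6 cathepsins, the lysosomal proteases, 4, 4 and 1 were higher in 4T1 tumors at weeks 1, 3 and 6 and 0 were lower, with Ctsl at 0.86 at week 6 (adjusted p = 2.83e-08). Both lists stand beside 19.4%, 30.3% and 40.8% of all genes called at weeks 1, 3 and 6. At week 6 Ctsl was 0.31 above the BALB/c glands in 4T1 tumors and -0.46 from the C57BL/6 glands in Py230 tumors, both called.

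Other tissue markers were also called in the tumors of week 6. Of all genes, 60.1% were called in 4T1 tumors against BALB/c glands and 47.6% in Py230 tumors against C57BL/6 glands. Against BALB/c glands, 4T1 tumors were lower in 7 of 7 myoepithelial, 4 of 5 milk protein, 5 of 5 skeletal muscle and 3 of 4 endothelial markers and higher in 4 of 4 proliferation markers. Against C57BL/6 glands, Py230 tumors were lower in 2, 2, 0 and 4 of these, higher in 1 milk protein gene and higher in 4 of 4 proliferation markers. Luminal epithelial markers were called higher for 1 and lower for 1 of 5 in 4T1 tumors and higher for 2 in Py230 tumors. Of 3 measured B cell markers of lymph nodes, 1 was higher in 4T1 tumors and 1 lower in Py230 tumors. The part of these tissues in the members' differences was not tested.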

How the data were processed

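Tumors and Matrigel-inoculated glands were taken for RNA-seq, with stranded paired-end libraries. Per the paper and the labels, the authors mapped reads to mm10 with STAR, counted them per gene with summariseOverlaps, and normalized with DESeq2 (versions are not given in the sources used here). The deposited expression table holds a score per gene and library, centred and scaled within each library (mean 0, SD 1 over 21650 genes, range -2.68 to 4.11), a step that the sources do not describe. The scores have no true 0 and no counts, so depth per library is unknown and no counting interval can be given. Precision rests on the spread between libraries, 3 per group, pooled over the groups. A second deposited column, the authors' mean normalized count over libraries, was used only to describe expression level, for a filter and for likeness. The deposited fold changes and p-values of the authors' own comparisons of the tumors, and a gene set membership table, were not used.

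Since the scores are not counts, limma 3.58.1 (R 4.3.3) was fitted to all 36 libraries with 1 mean per group and empirical Bayes moderation (trend and robust), with Benjamini-Hochberg adjustment over 21650 genes in each of 23 comparisons and a threshold of 0.05, two-sided. The procedure was run on simulated data in which each gene had the same spread in all groups. That run cannot show how the procedure does where the spread differs between groups. An exact permutation test of 3 against 3 libraries cannot go below 0.1 and was not used. The labels number tumors and glands without saying that each came from a different mouse, so p-values measure the spread between these samples, which may be technical in part. In the table, 5384 genes were named from the mouse reference. Alternatives were quantile normalization, rescaling by median and median absolute deviation (MAD), a minimum mean normalized count of 10 (19073 genes), a fit of the compared groups alone, no trend and no robust step, the replicate number as a block, and leaving out each library. Cyclic loess, and leaving out replicate 1 of both tumors at week 3, were chosen after seeing the data.

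All 10 members were named throughout. From each further list, the genes past the threshold with the largest differences were named, at most 3 per direction and comparison, and S100a9 and Ly6g were chosen after their values were seen. A gene of these lists is not reported here and is left out of the counts given. For likeness, the 3 genes with the highest Pearson r over 12 group means were named, among genes whose mean normalized count reached 100. Members and lists were chosen with earlier results of these data known. Promoters were read from a RefSeq table and figures were drawn with matplotlib 3.10.9 in Python 3.11.15 with pandas 2.3.3.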

Additional observations from a re-analysis of the deposited data

Results flagged for a closer look

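For 3 members, the effect of a tumor against the glands of its strain differed between the models by a test of the difference itself (limma, adjusted over all genes). Mmp9 differed by 0.99 (SE 0.30, adjusted p = 0.0396) at week 3 and by 1.37 (SE 0.30, adjusted p = 0.00127) at week 6. Mmp11 differed by 0.88 (adjusted p = 0.00785) and Timp3 by -0.65 (adjusted p = 6.91e-06) at week 6. The value of week 3 was lost without any of 8 of 12 libraries, and those of week 6 held without each.

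For 4 members, the 4T1 minus Py230 difference changed between weeks. From week 1 to week 3 it changed by 0.75 for Mmp2 (adjusted p = 0.0125), 0.49 for Mmp14 (adjusted p = 0.021), 0.52 for Timp2 (adjusted p = 0.00771) and 0.53 for Timp3 (adjusted p = 0.000832). From week 3 to week 6 it changed by -0.86 for Timp3 (adjusted p = 2.05e-07). Both Timp3 values and that of Timp2 held without each library. Mmp2 lost its call without Py230 replicate 1 of week 3 (0.61, adjusted p = 0.0669), and Mmp14 without that library (adjusted p = 0.103), 4T1 replicate 1 or 3 of week 1, or Py230 replicate 3 of week 1. Groups of 3 libraries were not screened for single outlying values.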

How the results depend on the processing

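Of 230 member differences, 51 were called, and none of their 742 recomputed values changed sign. Leaving out single libraries ended 29 of the 51 calls and left 22. Fitting only the groups compared takes the spread from those groups alone and from far fewer libraries. It moved many counts up or down, along with the genes called in the whole table. Between the tumors it gave 1, 0 and 7 members at weeks 1, 3 and 6, beside 1487, 434 and 9910 of all genes (4196, 6569 and 8837 with all libraries). For 4T1 tumors against glands it gave 0 at week 1, beside 0 of all genes, for Py230 tumors against glands 0 at week 3, beside 36, and 8 at week 6 (2 higher and 6 lower), beside 11831, and between glands 1 at week 3, beside 897. With the gland difference subtracted it gave 0 at week 3, beside 60, and 6 at week 6, beside 6641. From week 1 to week 3 it gave 0 in 4T1 tumors, 0 in Py230 tumors and 0 for the change of the model difference, beside 0, 3 and 4 of all genes, and in Py230 tumors from week 3 to week 6 it gave 1, beside 92. Quantile normalization and cyclic loess each gave 1 for Py230 tumors against glands at week 3 and 2 for Py230 tumors from week 3 to week 6. Without replicate 1 of both tumors at week 3, the counts were 1 between the tumors, 0 for Py230 tumors against glands and 0 with glands subtracted at week 3, 4 in 4T1 tumors from week 1 to week 3, 2 in Py230 tumors from week 3 to week 6, and 2 for the later change of the model difference.

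Without single libraries the counts ran from 1 to 5, 0 to 6 and 4 to 5 between the tumors at weeks 1, 3 and 6, from 0 to 4, 0 to 1 and 4 to 6 for 4T1 tumors against glands, and from 0 to 0, 0 to 3 and 3 to 5 for Py230 tumors against glands. They ran from 0 to 2, 0 to 3 and 3 to 3 with glands subtracted, from 0 to 4 and 2 to 7 in 4T1 tumors over the 2 intervals, from 3 to 6 and 0 to 2 in Py230 tumors, from 0 to 1 in BALB/c glands over time, and from 2 to 6 and 1 to 2 for the change of the difference. Of 54 same-number correlations, 17 were above 0.1, in a range of -0.54 to 0.79. They were not set against pairs of unlike number, so whether replicate numbers pair the samples cannot be decided. A fit with the replicate block gave 4, 6 and 4 members between the tumors and 6 for Py230 tumors against glands at week 6, of which 1, Timp1, was higher. The filter on low counts and the fit with no trend moved no count beyond 1.5 times. Scaling shifted the median difference of all genes by at most 0.064.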
